A study of Mus musculus with 25 samples.

Results

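The 4 T cell factor and lymphoid enhancer factor genes (*Tcf7*, *Tcf7l1*, *Tcf7l2* and *Lef1*) and the zinc finger genes *Sp5* and *Sp8* were followed through 25 libraries of mouse E14 embryonic stem (ES) cells. They were taken by name: the rows of the count table whose Ensembl ID belongs to 1 of these 6 symbols. All 6 were found among 48440 genes, of which 24294 had at least 1 count. The libraries were made by bulk 3′ RNA sequencing with unique molecular identifiers, so that a count is a molecule and not a read. Of the libraries, 10 came from unedited E14 cells, 2 at each of 0, 2.5, 5, 7.5 and 10 µM CHIR99021 for 48 h. The other 15 came from clones without CHIR99021, each heterozygous for a missense mutation in *Ctnnb1*, the gene of β-catenin. The mutations were S37A, S37C, S37Y, S45C, S45P, T41N and T41S with 1 clone each, and S37F, S45F, T41A and T41I with 2 clones each. All lines share the E14 background, a line kept without feeder cells, in serum medium that held leukemia inhibitory factor, and the clones had passed through the insertion and replacement of a selection cassette. A mutation with a single clone has no replicate, and what belongs to the mutation and what belongs to the clone cannot be told apart there.

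TCF and LEF proteins are the DNA-binding partners of β-catenin. Without β-catenin they sit on Wnt target genes with co-repressors of the TLE family, and with β-catenin bound they activate the same genes. Tcf7l1 acts mainly as a repressor in ES cells, where it holds down genes of the naive pluripotent state, whereas Tcf7 and Lef1 act mostly as activators and Tcf7l2 can do either. Sp5 and Sp8 are Wnt-induced members of the Sp family that act at Wnt target genes themselves. CHIR99021 inhibits GSK3, the kinase that marks β-catenin for degradation, and the mutated codons 37, 41 and 45 encode residues that are phosphorylated in that process.

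The members lie on different chromosomes of GRCm38. *Sp5* (ENSMUSG00000075304.2) is at chr2:70474923-70477729 on the plus strand and *Sp8* (ENSMUSG00000048562.6) at chr12:118846329-118852576 on the plus strand. *Lef1* (ENSMUSG00000027985.14) is at chr3:131110471-131224356 on the plus strand and *Tcf7* (ENSMUSG00000000782.15) at chr11:52252371-52283014 on the minus strand. *Tcf7l1* (ENSMUSG00000055799.13) is at chr6:72626378-72789254 on the minus strand and *Tcf7l2* (ENSMUSG00000024985.18) at chr19:55741820-55933654 on the plus strand. All are protein-coding, and the genes that overlap them held at most 45 counts each over all libraries.

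The core of the sequence that TCF and LEF proteins bind was searched for as CTTTGA and CTTTGT on both strands, in the 250 bases before each RefSeq start (GRCm38.p6). The reverse complements are TCAAAG and ACAAAG, and no matches in the windows shown overlapped. All 6 members matched an entry, with 13 starts in all. The window before the only start of *Sp5* (chr2:70474673-70474922, plus strand) held 4 matches. The same number or more stood in 31 of 32851 windows (0.0944%), and at least 1 match in 27.6%. The most upstream starts of *Lef1*, *Tcf7*, *Tcf7l2* and *Sp8* had 0 matches and that of *Tcf7l1* had 1. An internal *Lef1* start (chr3:131156044-131156293, plus strand) had 3 matches, a number reached in 0.776% of windows. It was the highest of 4 *Lef1* starts, whereas that share is for single windows, and the other 3 had 0. The windows of *Sp5* and of the internal *Lef1* start are shown for their matches, in capitals, and that of *Sp8* (chr12:118846079-118846328, plus strand) as one without a match from a gene that also rose with CHIR99021. Of the other 2 *Sp8* starts, 1 had 1 match. A match is a run of letters and not a measured binding site.
Sp5: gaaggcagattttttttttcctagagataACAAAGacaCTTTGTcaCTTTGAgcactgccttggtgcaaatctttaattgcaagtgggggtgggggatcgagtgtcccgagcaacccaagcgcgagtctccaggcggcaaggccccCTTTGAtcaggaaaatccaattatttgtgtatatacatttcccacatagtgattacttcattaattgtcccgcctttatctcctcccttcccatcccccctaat
Lef1 internal start: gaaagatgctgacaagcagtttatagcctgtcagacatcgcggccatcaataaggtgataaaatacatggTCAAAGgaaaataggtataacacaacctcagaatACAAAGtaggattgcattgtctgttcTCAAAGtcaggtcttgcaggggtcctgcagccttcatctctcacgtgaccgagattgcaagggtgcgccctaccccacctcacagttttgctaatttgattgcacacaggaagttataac
Sp8: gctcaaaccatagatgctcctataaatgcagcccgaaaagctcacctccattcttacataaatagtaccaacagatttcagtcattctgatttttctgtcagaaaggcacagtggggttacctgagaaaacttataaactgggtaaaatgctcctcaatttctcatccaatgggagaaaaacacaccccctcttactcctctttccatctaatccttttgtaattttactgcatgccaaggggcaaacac

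Libraries held 306157 to 2083398 counts, and a count of 0 would allow 1.44 to 9.80 CPM (counts per 1000000 counts of the library). *Ctnnb1* itself lay between 362 and 542 CPM in all libraries. The 6 ES cell markers were detected in both the unedited cells (1543 to 2696 CPM summed) and the clones (1382 to 3234). The T41S library stood apart: its ES marker sum was 1382 CPM against 2242 to 3234 in the other 14 clones, its 3 neural markers summed to 132 CPM (others 4.47 to 56.5) and its 3 fibroblast markers to 153 CPM (others 4.13 to 58.5). Most of each of the latter sums was 1 gene, *Nes* at 127 CPM and *Col1a1* at 126 CPM. S37Y had the highest primitive endoderm markers, with *Gata6*, *Sox17* and *Dab2* summing to 185 CPM (others 1.33 to 74.4, untreated cells 10.6 and 11.4), and all 3 of these genes passed between mutations. Their part in the members' levels was not tested, and each member's call between mutations was kept without S37Y. Unedited libraries fell into a set of 6 with 0.986% to 1.46% mitochondrial counts and a set of 4 with 0.485% to 0.562%, 1 of them at each dose but 7.5 µM. The former set held 1311779 to 2083398 counts per library and the latter 306157 to 940544. Mitochondrial share and depth thus cannot be told apart between these sets. Clones had 1.53% to 2.52% mitochondrial counts. CPM are not divided by transcript length. Levels are compared between libraries, and between genes only in the shares of the 4 TCF and LEF genes below.

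*Sp5*, *Sp8* and *Lef1* rose with CHIR99021, each with its own shape. *Sp5* was at 14.9 and 15.2 CPM in untreated cells, at 66.3 and 87.7 at 2.5 µM, at 117 and 181 at 5 µM, at 131 and 137 at 7.5 µM, and at 179.6 and 192 at 10 µM. The groups from 0 to 5 µM did not overlap, and those at 5 and 7.5 µM did. *Lef1*, an activator that is also a Wnt target, was at 8.15 and 11.7 CPM without CHIR99021 and at 9.91 and 12.9 at 2.5 µM, then at 38.4 and 39.5 at 5 µM, 48.4 and 48.6 at 7.5 µM, and 42.5 and 45.2 at 10 µM. Both libraries at 2.5 µM were thus near the untreated ones, and all 6 libraries from 5 µM up lay above them. *Sp8* had a single count in each untreated library (0.544 and 1.06 CPM), 3.05 and 4.31 CPM at 2.5 µM, 9.12 and 9.87 at 5 µM, 10.9 and 11.6 at 7.5 µM, and 13.1 and 15.1 at 10 µM. Its dose groups did not overlap, in the order of the doses, but they rest on few counts. These were 3 and 4 at 2.5 µM, 6 and 19 at 5 µM, 16 and 19 at 7.5 µM, and 4 and 20 at 10 µM. From 5 µM up the Wilson intervals overlapped, as in the first libraries at 5 µM (4.52 to 21.5 CPM) and 10 µM (5.08 to 33.6). For this and the other members, the share of all genes whose dose groups do not overlap was not counted. Markers of other cell types moved with the dose as well. The 4 mesendoderm markers summed to 15.2 and 20.2 CPM in untreated cells and 116 to 154 at 7.5 and 10 µM. Of these, *T* and *Mixl1* were called higher and *Eomes* was not. Of the 3 neural markers, the means of *Pax6* and *Sox1* went from 20.4 to 0.576 CPM and from 5.34 to 0. The mean of *Nes* went the other way, from 18.3 to 23.3 CPM. The part of these markers in the members' levels was not tested. In bulk RNA, fewer cells of a type and less RNA per cell cannot be told apart.

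Fitted as a straight line on the dose (edgeR quasi-likelihood test, Benjamini-Hochberg adjustment over 10033 genes), the log2 level of *Sp5* rose by 0.26 ± 0.03 (SE, n = 10 libraries) per µM (adjusted p = 2.49e-06), that of *Sp8* by 0.31 ± 0.05 (adjusted p = 0.000132) and that of *Lef1* by 0.24 ± 0.03 (adjusted p = 8.24e-06). *Tcf7* rose by 0.05 ± 0.02 per µM (adjusted p = 0.0405). Thus 4 of the 6 members were called higher, against 5.89% of all genes tested, and 1 was called lower (*Tcf7l1*), against 6.63%. The *Sp5* slope was 0.28 ± 0.03 within the 6 libraries of the higher mitochondrial share and 0.26 ± 0.05 within the other 4. That of *Lef1* was 0.25 ± 0.04 and 0.20 ± 0.06, and the latter did not pass with 4 libraries (adjusted p = 0.0897; 1.44e-15 to 0.0897 over all alternatives). *Sp8* was 0.32 ± 0.06 in the higher set and fell under the count filter in the lower one.

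**Figure D1:**
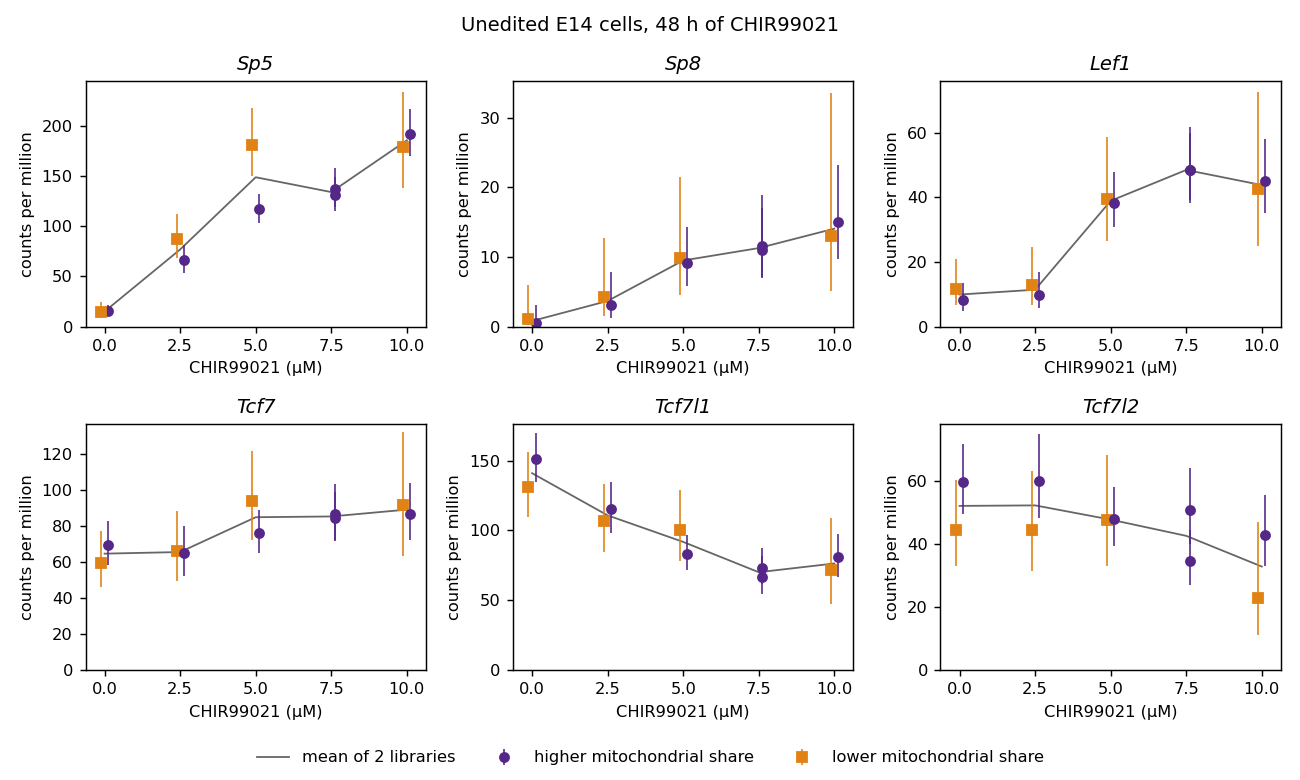
CPM of the 6 members in unedited cells (vertical axes, from 0) against the CHIR99021 dose in µM, with Wilson 95% intervals for counting error and a line through the means of 2 libraries. *Sp5* was already at 66.3 and 87.7 CPM at 2.5 µM, where *Lef1* was at 9.91 and 12.9, and *Tcf7l1* went from 131 and 151 CPM to 71.9 and 80.6 at 10 µM.

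The other 3 TCF genes moved less. *Tcf7l1*, the repressor, was at 131 and 151 CPM in untreated cells, at 106 and 115 at 2.5 µM, at 83.0 and 100.3 at 5 µM, at 66.7 and 73.2 at 7.5 µM, and at 71.9 and 80.6 at 10 µM. It fell in steps that did not overlap up to 7.5 µM, with a slope of -0.10 ± 0.02 (SE) log2 per µM (adjusted p = 2.99e-05). The slope was -0.11 ± 0.02 in the higher mitochondrial set and -0.08 ± 0.03 in the lower one, where it did not pass (adjusted p = 0.259; 1.58e-08 to 0.259 over all alternatives). *Tcf7* was at 59.5 and 69.6 CPM at 0 µM, 64.8 and 66.1 at 2.5 µM, 75.8 and 93.8 at 5 µM, 84.1 and 86.3 at 7.5 µM, and 86.6 and 91.5 at 10 µM. All 6 libraries from 5 µM up lay above all 4 below it. *Tcf7l2* was at 44.7 and 59.8 CPM at 0 µM, 44.5 and 60.2 at 2.5 µM, 47.7 and 48.0 at 5 µM, 34.6 and 50.8 at 7.5 µM, and 22.9 and 42.9 at 10 µM. Its dose groups overlapped, and the slope of -0.05 ± 0.02 did not pass (adjusted p = 0.113). The call on *Tcf7* was lost in 7 of 10 fits that left out 1 library (either one at 0, 7.5 or 10 µM, or the second at 2.5 µM; adjusted p = 0.0516 to 0.129 there, and 0.027 to 0.392 over all alternatives), and *Tcf7l2* passed when the mitochondrial set was a term in the fit (-0.06 ± 0.02, adjusted p = 0.0457; 0.0457 to 0.670 over all alternatives).

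Taken step by step, *Sp5* was the only member that passed from 0 to 2.5 µM. It rose by 2.33 ± 0.26 log2 units (SE, 5.01-fold, adjusted p = 1.6e-07), and it had the third smallest p of 10674 genes. At that step 2.32% of genes passed. *Sp8* (2.15 ± 0.98, adjusted p = 0.315) and *Tcf7l1* (-0.33 ± 0.15, adjusted p = 0.339) were under 0.05 before adjustment only. From 2.5 to 5 µM, 12 genes passed (0.112%), and 2 of them were members: *Lef1*, by 1.80 ± 0.31 (3.49-fold, adjusted p = 0.00173), and *Sp5*, by 0.89 ± 0.19 (1.86-fold, adjusted p = 0.0254). Without the second library at 2.5 µM, neither passed (adjusted p = 0.404 for *Lef1*; 0.000300 to 0.681 over all alternatives, and 0.782 for *Sp5*; 0.000858 to 0.782). *Sp5* also failed without the first library at 5 µM (adjusted p = 0.358) and *Lef1* without the second (adjusted p = 0.105). From 5 µM to the 2 highest doses together (7.5 and 10 µM, 4 libraries), 0 members passed in edgeR, 0 at an unadjusted p under 0.05 and 0 in DESeq2, where 0.0468% of genes passed in edgeR. Their differences at that step ran from -0.27 ± 0.15 (*Tcf7l1*) to 0.45 ± 0.37 (*Sp8*).

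Between the 2 highest doses and untreated cells, *Sp5* was higher by 3.40 ± 0.21 log2 units (SE, 10.5-fold, adjusted p = 3.87e-16), *Lef1* was 4.94-fold higher (log2 SE 0.26, adjusted p = 8.36e-09) and *Sp8* was higher by 3.98 ± 0.65 (adjusted p = 1.19e-05). *Tcf7l1* was lower by -0.93 ± 0.13 (0.523-fold, adjusted p = 1.42e-06). These are 4 of 6 members against 15.8% of genes. *Tcf7* (0.41 ± 0.15, adjusted p = 0.0677) and *Tcf7l2* (-0.42 ± 0.19, adjusted p = 0.147) did not pass. The size for *Sp8* rests on 2 counts in untreated cells: 59 counts of 4747855 against 2 of 2780279 gave a ratio of 17.3, with an exact 95% interval from 4.58 to 146 for counting error.

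The changes left the 4 TCF and LEF genes in different proportions. Of their summed counts, *Lef1* took 2.82% and 4.74% in the 2 untreated libraries and 17.7% to 20.1% in the 4 libraries at 7.5 and 10 µM. *Tcf7l1* went from 52.4% and 53.0% to 26.4% to 31.6%. *Tcf7* went from 24.1% in both to 33.9% to 40.0%, and *Tcf7l2* from 18.1% and 20.7% to 10.0% to 20.1%. Only for *Tcf7l2* did the untreated and top-dose shares overlap. These are shares of 3′ counts, not of protein.

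**Figure D2:**
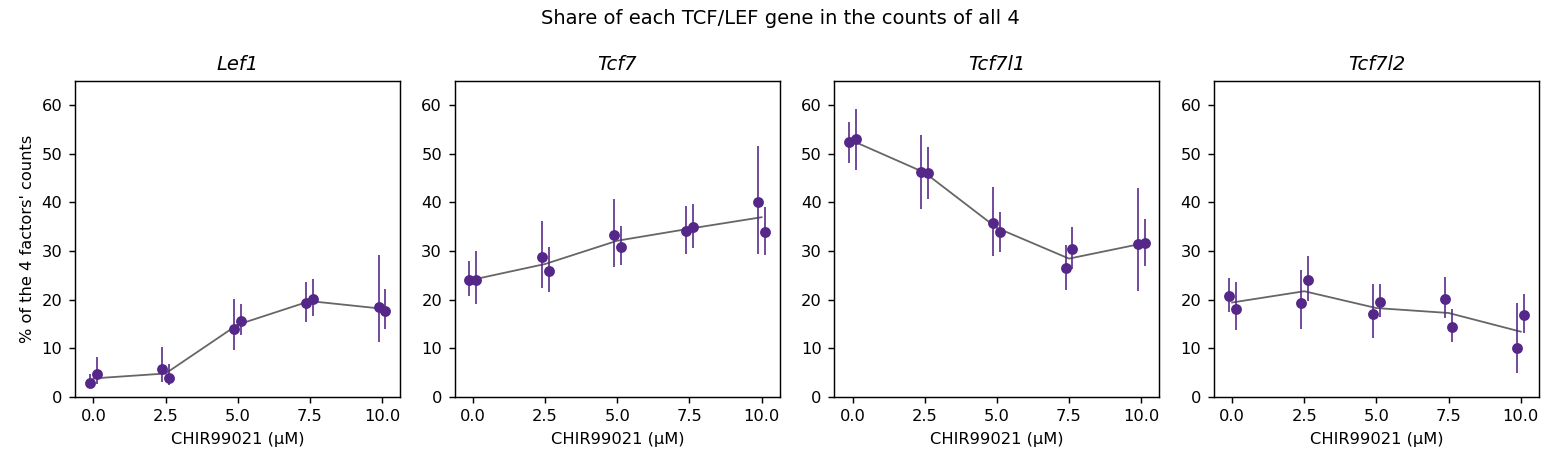
Share of each TCF and LEF gene in the summed counts of all 4 (vertical axes, %), by CHIR99021 dose in µM, 1 point per library with Wilson 95% intervals and a line through the means. *Lef1* stood at 5.63% or less up to 2.5 µM and at 17.7% to 20.1% at 7.5 and 10 µM, and *Tcf7l1* fell from about 53.0% to 31.6% or less.

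In the clones, the CPM of *Sp5* and *Sp8* were above those of untreated cells without exception, for *Sp8* on few counts. The share of all genes with every clone above both untreated libraries was not counted. *Sp5* ran from 36.4 CPM (S45F clone C1) through a median of 64.2 to 128 (S37F clone G1), so that 15 of 15 clones lay above both untreated libraries and below all 4 libraries at 7.5 and 10 µM (131 to 192 CPM). *Sp8* ran from 2.23 CPM (T41A clone E6) through 6.39 to 10.2 (T41S), with the same positions. *Lef1* ran from 5.65 CPM (S45F clone C1) through 17.8 to 52.5 (T41N), with 12 clones above both untreated libraries and 1 below both. T41N alone exceeded the top doses (42.5 to 48.6 CPM). Its value rests on 26 counts, with a Wilson interval from 35.8 to 76.9 CPM that holds the whole top-dose range. The fit took the 15 clones, of 11 mutations, as 1 group, so its spread also holds differences between mutations. Against untreated cells *Sp5* was higher by 2.25 ± 0.42 log2 units (SE, 4.75-fold, adjusted p = 0.000498) and *Sp8* by 2.74 ± 0.71 (adjusted p = 0.0075), while *Lef1*, at 1.07 ± 0.52, did not pass (adjusted p = 0.142). That is 2 of 6 members called higher, against 11.2% of genes. The summed counts of *Sp8* (107 of 19589003 in the clones) gave a ratio of 7.59, with an interval from 2.05 to 63.5. Without the first untreated library *Sp8* did not pass (adjusted p = 0.206; 0.00508 to 0.206 over all alternatives).

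*Tcf7* was lower in the clones than in unedited cells. It ran from 29.5 CPM through a median of 46.8 to 58.6, and 15 of 15 clones lay below both untreated libraries and below all 4 libraries of the top doses. The share of all genes with every clone below those libraries was not counted. The 2 clones of T41I (A6 at 29.5, B9 at 58.6) were the lowest and the highest. The difference from untreated cells was -0.50 ± 0.18 (SE, 0.707-fold, adjusted p = 0.0433), the only member among the 11.6% of genes called lower, and it was lost in 11 of 25 fits that left out 1 library (either one at 0, 2.5, 7.5 or 10 µM, S37F clone G1, S37Y or T41A clone C1; adjusted p = 0.0522 to 0.419 there, and 0.0284 to 0.419 over all alternatives). *Tcf7l1* (54.2 to 217 CPM, median 126) had 5 clones above and 8 below both untreated libraries, and *Tcf7l2* (11.9 to 130.5 CPM, median 31.9) had 2 above and 11 below. Neither passed (-0.16 ± 0.32, adjusted p = 0.764, and -0.36 ± 0.47, adjusted p = 0.622).

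Against the 2 highest doses, the clones were lower in *Sp5* by -1.16 ± 0.22 log2 units (SE, adjusted p = 0.000208), in *Sp8* by -1.24 ± 0.32 (adjusted p = 0.00322), in *Lef1* by -1.21 ± 0.31 (adjusted p = 0.0033) and in *Tcf7* by -0.94 ± 0.13 (adjusted p = 7.9e-06). These are 4 of 6 members against 17.7% of genes. *Tcf7l1* was higher by 0.76 ± 0.27 (adjusted p = 0.0296), against 20.2% of genes called higher, and lost the call when any 1 of the 4 top-dose libraries was left out (adjusted p = 0.0721 to 0.119 there, and 0.00199 to 0.119 over all alternatives). *Lef1* and *Sp8* did not pass without the second library at 10 µM (adjusted p = 0.0611 and 0.0827; 0.000201 to 0.0611 and 0.000636 to 0.0827 over all alternatives). The 3 comparisons share the untreated or the top-dose libraries. The mitochondrial shares of clones and unedited libraries did not overlap, so editing, cloning and this share cannot be told apart here.

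**Figure D3:**
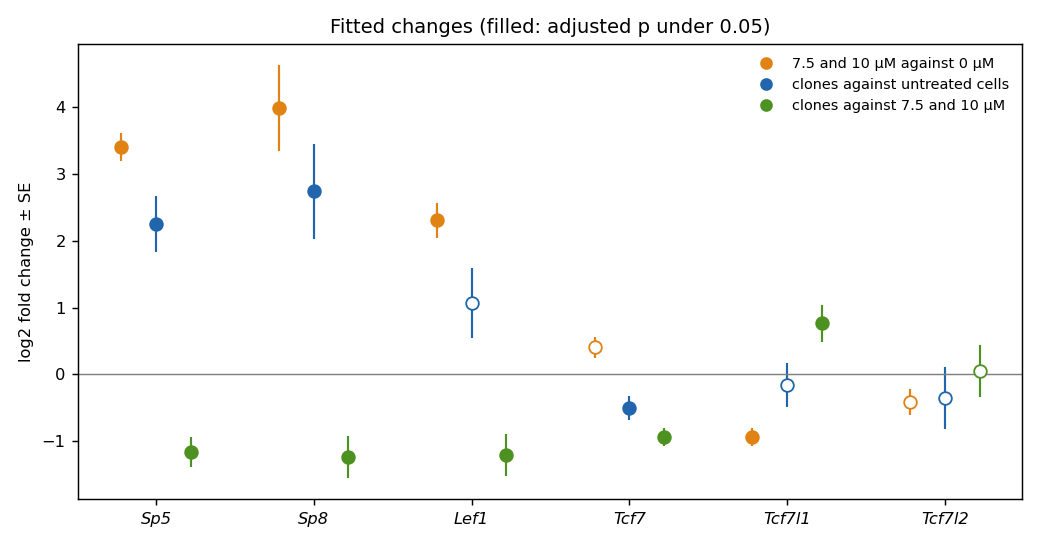
Fitted log2 fold changes ± SE (vertical axis) of the 6 members in 3 comparisons, filled where the adjusted p was under 0.05. *Sp5* was higher by 3.40 in the top doses and by 2.25 in the clones against untreated cells, and *Tcf7* was at 0.41 in the former and -0.50 in the latter.

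Differences among the 11 mutations passed for 4 of 6 members, where 17.1% of genes passed (F-test over mutations, adjusted p = 0.00146 for *Tcf7l1*, 0.00351 for *Tcf7l2*, 0.025 for *Sp5* and 0.044 for *Lef1*). The range between the highest and lowest fitted mutation was 1.58 log2 units for *Tcf7l1*, 2.62 for *Tcf7l2*, 1.16 for *Sp5* and 2.45 for *Lef1*. *Tcf7* (0.70, adjusted p = 0.836) and *Sp8* (1.79, adjusted p = 0.584) did not pass. Clones of the same mutation also differed, in these 4 genes by less than those ranges: the 2 clones of S45F were 1.32 log2 units apart in *Tcf7l2* and 1.24 in *Lef1*. The SD within a mutation, from the 4 pairs of clones, was 0.30 log2 units for *Tcf7l1* against 0.59 over all clones. It was closer to that over all clones for *Tcf7l2* (0.60 against 0.76), *Lef1* (0.61 against 0.77) and *Sp5* (0.39 against 0.50). For *Sp8* it was 0.58 against 0.58, and for *Tcf7* 0.36 against 0.28.

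*Tcf7l2* turned on a single library. T41S was at 130.5 CPM, the next clones were S37F clone G1 at 63.4, T41N at 56.5 and S45C at 52.8, and the other 11 lay between 11.9 and 41.9. Without T41S the range over mutations was 1.35 log2 units and did not pass (adjusted p = 0.342; 1.2e-18 to 0.342 over all alternatives). The neural and fibroblast marker sums of T41S given above, mostly *Nes* and *Col1a1*, were also the highest of all clones. Their part in the *Tcf7l2* level was not tested. *Lef1* lost its call without T41S too, as it did without S45C, T41N, S45F clone C1 or any clone of S37F or T41A (adjusted p = 0.0616 to 0.131 there, and 7.78e-06 to 1.00 over all alternatives), and *Sp5* without S37F clone G1 or either clone of T41A (adjusted p = 0.0548 to 0.0868 there, and 3.42e-08 to 0.540 over all alternatives).

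The study had given each mutation a mutation effect score (MES), a reporter measurement of its β-catenin activity in other ES cells. From low to high, the mutations stood in the order T41S, S45C, T41N, S45P, S45F, S37Y, S37C, S37A, T41A, T41I and S37F. *Tcf7l1* fell with MES, by -0.48 ± 0.11 log2 units (SE, n = 15 clones) per 10000 score units (adjusted p = 0.00414), the only member among the 13.0% of genes called lower, and 0 of 5 members tested were among the 9.91% called higher in edgeR, and 0 were in DESeq2. At an unadjusted p under 0.05, *Sp5* was also higher and *Tcf7l2* lower. *Sp5* had a slope of 0.27 ± 0.12 (adjusted p = 0.113) and passed without T41S, at 0.50 ± 0.14 (adjusted p = 0.0213; 0.0213 to 0.487 over all alternatives). *Tcf7l2* had -0.45 ± 0.17 (adjusted p = 0.0578), and 0.01 ± 0.17 without T41S. It passed in 5 of 23 alternatives, among them those without S37F clone G1 or S45F clone D9 (adjusted p = 0.00753 to 0.974 over all). *Lef1* (-0.18 ± 0.19, adjusted p = 0.546) and *Tcf7* (-0.02 ± 0.09, adjusted p = 0.885) did not pass, and *Sp8* had too few counts to be tested. The *Lef1* levels had no single direction: T41S, S45C and T41N, the 3 lowest scores, were at 27.7, 39.2 and 52.5 CPM, S45P and S45F at 5.65 to 14.7, S37Y, S37C, S37A and T41A at 10.2 to 18.6, and T41I and S37F at 13.8 to 31.0.

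**Figure D4:**
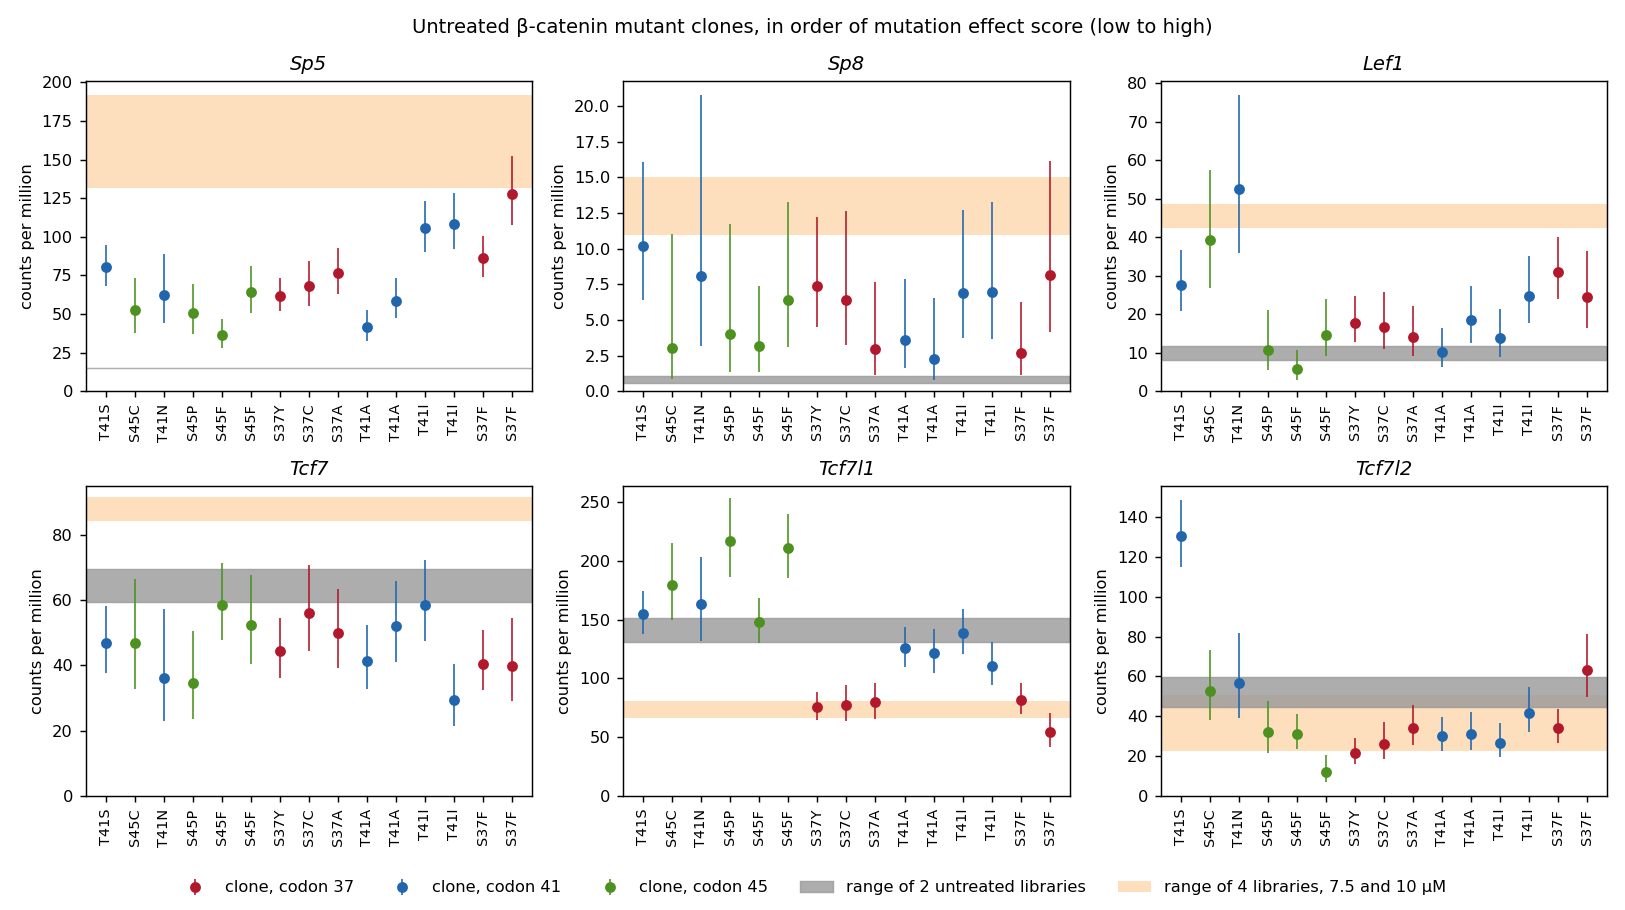
CPM of the members in the 15 clones (vertical axes, from 0) in order of rising MES, coloured by codon, with Wilson 95% intervals, the range of the 2 untreated libraries in grey and of the 4 libraries at 7.5 and 10 µM in orange. All clones lay above the grey band in *Sp5* and *Sp8* and below it in *Tcf7*, T41S stood at 130.5 CPM in *Tcf7l2*, and the codon 37 clones stood at 54.2 to 81.7 CPM in *Tcf7l1*.

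*Tcf7l1* levels differed by mutated codon. Codon and score were set in the same fit, given below, but which of them the levels followed more closely was not tested. Codon and score went together in part, as all codon 45 mutations had lower scores than all codon 37 mutations. The 5 codon 37 clones were at 54.2 (S37F G1), 75.5 (S37Y), 77.5 (S37C), 79.6 (S37A) and 81.7 CPM (S37F H2), where the libraries at 7.5 and 10 µM CHIR99021 were at 66.7 to 80.6. The 6 codon 41 clones were at 111 (T41I A6), 122 (T41A E6), 126 (T41A C1), 138 (T41I B9), 155 (T41S) and 163 CPM (T41N), and the 4 codon 45 clones at 148 (S45F C1), 179.5 (S45C), 211 (S45F D9) and 217 CPM (S45P). Codon 37 did not overlap the others, and codons 41 and 45 overlapped. T41A and T41I have higher scores than S37Y, S37C and S37A, and their 4 clones were all above those 3 in *Tcf7l1*. Within codon 41, T41S and T41N, with lower scores, were above all 4 clones of T41A and T41I, but T41S, the lowest score, was below T41N. Within codon 45, S45C had the lowest score and was below S45P and S45F clone D9, though above S45F clone C1. Within codon 37, clones G1 and H2 of S37F, the highest score, were the lowest and the highest.

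The comparison of codons was added after these values had been seen, so its p-values describe a pattern already noticed. It also counted the 2 clones each of S37F, S45F, T41A and T41I as separate replicates of a codon. Codon 41 clones were higher in *Tcf7l1* than codon 37 clones by 0.87 ± 0.14 log2 units (SE, 1.83-fold, adjusted p = 0.0344), 1 of only 2 genes that passed (0.0197%), and lost the call in 9 of 15 fits that left out 1 clone (any codon 37 clone, S45C, T41I clone B9, T41N or T41S; adjusted p = 0.0512 to 0.134 there, and 3.11e-05 to 0.134 over all alternatives). Codon 45 clones were higher than codon 37 clones by 1.32 ± 0.15 (2.50-fold, adjusted p = 0.000189), where 1.70% of genes were called higher and 1.45% lower. Between codons 45 and 41, where 0.0197% of genes passed, the difference was 0.45 ± 0.14 (adjusted p = 0.422). No other member passed in any of the 3. With codon as a term in the fit, the MES slope of *Tcf7l1* was -0.15 ± 0.08 (adjusted p = 0.192; 0.000425 to 0.192 over all alternatives). The codon 45 against codon 37 difference in *Tcf7l1* passed in all 17 alternatives, DESeq2 and MES as a term among them (adjusted p = 4.51e-12 to 0.00142). *Sp5* averaged 84.0 ± 26.2 CPM (SD, n = 5) at codon 37, 76.1 ± 26.9 (n = 6) at codon 41 and 51.0 ± 11.4 (n = 4) at codon 45, ranges that overlapped.

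**Figure D5:**
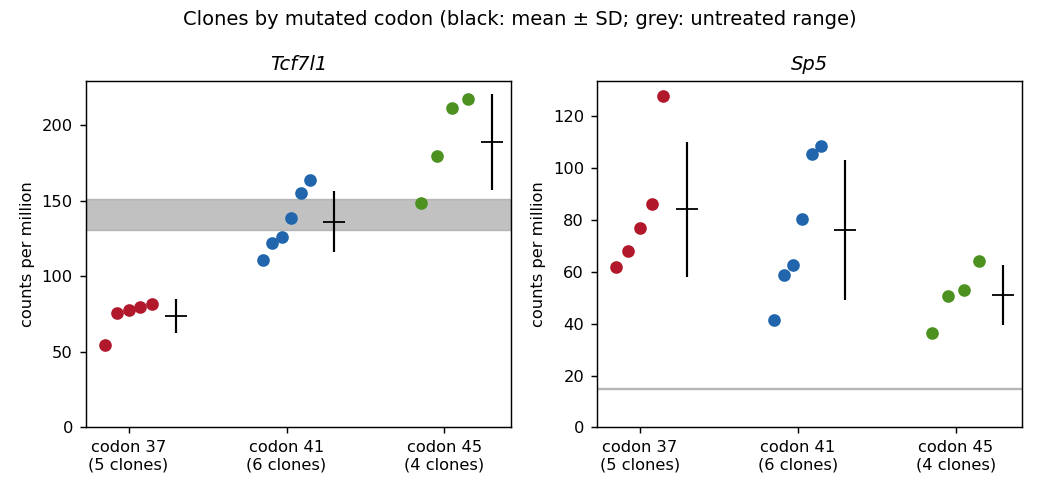
CPM of *Tcf7l1* and *Sp5* (vertical axes, from 0) in the clones by mutated codon, 1 point per clone, with the mean ± SD in black and the range of the 2 untreated libraries in grey. In *Tcf7l1* the 5 codon 37 clones (54.2 to 81.7 CPM) lay below all others, and in *Sp5* the codons overlapped.

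Of 16 tested partners of TCF and β-catenin (TLE and CtBP co-repressors, Bcl9 and Pygo adaptors, kinases), only *Tle4* passed for the dose, falling by 0.08 log2 units per µM (6.63% of all genes were called lower and 5.89% higher), and the median slope was -0.01 against 0.00 over all genes. *Tle4* also fell with MES (by 0.39 per 10000 units), as did *Bcl9l* (by 0.83), whereas *Aes*, the short TLE family member, rose (0.67). Those were 3 of 15 tested, where 13.0% of all genes were called lower and 9.91% higher. Of the other Sp genes, *Sp6* alone rose with the dose (0.20 per µM) among 4 tested, and 0 of 4 passed for MES in edgeR, with 0 at an unadjusted p under 0.05. In the clones against untreated cells, *Ctbp1*, *Ctbp2* and *Chd8* were higher and *Tle3* lower among 16 partners, a share near that of all genes (11.2% higher and 11.6% lower).

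Known Wnt targets rose with the dose in 9 of 10 tested genes, against 5.89% of all genes, at a median slope of 0.25 log2 units per µM against 0.00 over all genes. *Nkd1* (0.31) and *Notum* (0.29), both feedback inhibitors of the pathway, and *Axin2* (0.28), a scaffold of the destruction complex, had slopes like that of *Sp5* (0.26). With MES, only *Cdx1* (1.33 per 10000 units) and *Axin2* (0.44) passed of 9 tested, with 9.91% of all genes called higher. Of 6 genes known to be held down by Tcf7l1 in ES cells, 3 fell with the dose, against 6.63% of all genes, while *Tcf7l1* itself fell: *Nr0b1* by 0.09, *Nanog* by 0.06 and *Klf2* by 0.05 per µM. *Tfcp2l1* rose (0.06). The summed ES markers went from 2563 and 2696 CPM to 1543 to 1744 at the top doses beside this, and their part was not tested. With MES, 4 of the same 6 rose, against 9.91% of all genes (*Tfcp2l1* 0.95, *Esrrb* 0.60, *Nr0b1* 0.55 and *Klf2* 0.31 per 10000 units), and T41S, with the lowest score, also had the lowest ES marker sum.

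Over the 10 unedited libraries, which share the dose, Pearson's r of log2 CPM was 0.96 between *Sp5* and *Sp8*, 0.94 between *Lef1* and *Sp8*, and -0.91 between *Lef1* and *Tcf7l1*. *Tcf7l2* was less close to the others (-0.56 to 0.56). Over the 15 clones the values farthest from 0 were 0.53 between *Lef1* and *Tcf7l2* and -0.49 between *Sp5* and *Tcf7l1*, with *Sp8* not included, and the difference between doses and clones was not tested. Of 10033 genes, those most like *Sp5* over the doses were *Krt8* (0.99), *Cdkn1a* (0.99) and *Tpm1* (0.98), and *Enah* was the most opposite (-0.98). For *Sp8* they were *Cdx1*, *Cited1* and *Scd2* (all 0.99, opposite *Col18a1* at -0.98), and for *Lef1* *Atg3*, *Grsf1* and *Pam* (all 0.97, opposite *Tdgf1* at -0.97). For *Tcf7l1* they were *Pfkl* (0.99), *Dtx1* (0.97) and *Hsd17b14* (0.97), opposite *Cpz* (-0.98). Over the clones, among 10145 genes, *Tcf7l1* was most like *Fmr1* (0.93), *Mycn* (0.91) and *Hif1a* (0.90) and opposite to *Foxd1* (-0.90). *Sp5* was most like *Ptrhd1* (0.79), *Tstd2* (0.78) and *Fzd10* (0.78), a Frizzled receptor, and *Tcf7l2* most like *Tceal5* (0.89), *Hmga2* (0.87) and *Sh3bp4* (0.86).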

How the data were processed

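Bulk 3′ RNA sequencing (mcSCRB-seq) was done on 10 libraries of unedited E14 cells and 15 clones. The authors deposited counts per gene, with no normalization: reads were trimmed with Cutadapt, molecular identifiers extracted with UMI-tools, ribosomal reads removed with SortMeRNA, and the rest aligned to mm10 with RNA STAR, deduplicated and counted with featureCounts (2.0.1 in the submitters' processing notes). The annotation release and strand setting were not given in the sources used here. All 25 columns were used. Symbols and coordinates came from GENCODE M21 (48058 of 48440 IDs matched, 40606 with the same version). Reads from a 3′ end that overlaps another gene, or its antisense, cannot be told apart.

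CPM were computed from total counts. Intervals on CPM are Wilson 95% intervals and, like the limit that a count of 0 allows (3 counts), cover counting error only, which is wider in the shallow libraries. Tests were run over all genes with edgeR 4.0.16 (R 4.3.3; TMM, filterByExpr with a minimum count of 10, glmQLFit and glmQLFTest, false discovery rate 0.05, two-sided): a dose slope and dose steps over the 10 unedited libraries, clones against unedited cells over all 25 libraries, and differences between mutations and a slope on MES over the 15 clones. Clones against unedited cells took all clones as 1 group, whatever their mutation. SE is the log2 fold change over the square root of F. The MES per mutation was read from the study's source data, as a predictor only. The alternatives tried were DESeq2 1.42.0, RLE size factors in edgeR, thinned counts, all genes without the filter, each library left out in turn, a replicate block, ranks, a block by mitochondrial share (set apart at 0.8%), counts summed per mutation, the study's MES threshold, TMM-scaled CPM and Spearman's correlation for the similar genes. Fits within the mitochondrial sets, the comparison of codons, and codon with MES in one fit were added after the data were seen. Nothing says that the libraries of a dose came from separate cultures, so p-values may measure technical spread only. Both libraries of each dose differed by more than sampling noise (chi-square per degree of freedom 1.33 to 2.04). So did both clones of a mutation (1.75 to 3.66).

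The members, the lists of genes and the tests were chosen with earlier results of these data known. Named are the 6 members, *Ctnnb1*, up to 4 genes of each list by the smallest p in the dose or MES slope, and per member the 3 genes with the highest correlation and the 1 with the lowest. The partner genes named for the clones against untreated cells fall outside this rule and were chosen after their values were seen. The fits were tested on simulated data. Promoters came from RefSeq (GRCm38.p6). Figures used matplotlib 3.10.9.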

Additional observations from a re-analysis of the deposited data

Results flagged for a closer look

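Levels of the 6 members were checked for a clone far from the others among the clones of a codon (5, 6 and 4 clones), in 18 groups. By chance about 1 in 20 such groups would be picked out, and 2 were. *Tcf7l2* in T41S was at 130.5 CPM, and the nearest of the other 5 codon 41 clones was T41N at 56.5 CPM. *Tcf7l1* in S37F clone G1 was at 54.2 CPM, below the 75.5 CPM of S37Y, the nearest of the other 4 codon 37 clones. The second S37F clone, H2, was at 81.7 CPM. S37F clone G1 also had the highest *Sp5* level of all clones (128 CPM, against 85.9 in H2).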

How the results depend on the processing

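No member's call changed direction in any of 307 values under other settings or 990 with 1 library left out, of which 20 and 50 lost the call and 4 and 3 gained it. Thinning to the smallest library lowered counts of called genes to 296 (dose slope), 39 (2.5 against 0 µM), 1 (5 against 2.5 µM), 0 (top doses against 5 µM, edgeR, with 312 at an unadjusted p under 0.05), 441 (top doses against 0 µM), 988 and 2244 (clones against untreated cells and top doses), 1119 (between mutations) and 1449 (MES). DESeq2 gave 70, 2, 1 and 608 for the 4 dose steps, 649 between mutations, where *Tcf7l2* (adjusted p = 0.0565; 1.2e-18 to 0.342 over all alternatives), *Lef1* and *Sp5* did not pass, and 45, 21 and 561 for codons 41 against 37, 45 against 41 and 45 against 37. With no filter 19 and 17 genes passed in the middle dose steps and 3581 between mutations, the lower mitochondrial set alone gave 140, and codon with MES gave 516 (45 against 41) and 556 (45 against 37). Leaving out 1 library gave 527 to 1325 genes for the dose slope, 71 to 273, 3 to 20, 2 to 7 and 681 to 1801 for the steps, 618 to 3087 and 2368 to 4904 for the clones, 834 to 2703 between mutations, 1199 to 2388 for MES, and 0 to 6, 1 to 7 and 101 to 694 for the codons (0 in edgeR without S37A, with 1033 at an unadjusted p under 0.05). The cause of these differences was not tested beyond the fewer counts, genes or libraries. Replicate numbers did not pair the unedited libraries (r of deviations -0.12 to 0.11, 2 of 10 over 0.1), and a replicate block gave 1140 genes for the dose slope against 1256 and changed no member's call. TMM-scaled CPM moved *Sp5* from 10.6-fold to 10.8-fold at the top doses and from 4.79-fold to 4.67-fold in the clones. Of 33 genes found most like a member by Pearson's r, 7 were also among the first 3 by Spearman's rho. Depth limits *Sp8* most, with 200 counts in all.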
